A study of Saccharomyces cerevisiae with 8 samples.

Results

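Carnitine was tested here as an addition to yeast cells under hydrogen peroxide: cultures given carnitine and peroxide were set against cultures given peroxide alone, gene by gene, over all single-gene probe sets of the yeast array. The comparison rests on 4 of the series' 8 arrays, 2 biological replicates in each group. In the first group the cells grew with L-carnitine and received 0.4 mM H2O2 for 30 min before harvest, and in the second they received the same H2O2 exposure without carnitine. The other arrays, used for side-by-side values and the interaction, came from 2 cultures with carnitine alone and 2 untreated control cultures. All 8 cultures were the haploid laboratory strain BY4742, grown in synthetic complete glucose medium to mid-log phase, and all carried the same his3, leu2, lys2 and ura3 markers. The series design gives the carnitine level as 100 mg/L and the sample protocol as 1000 mg/L, so the dose is not settled by the labels. Of 5449 genes with a probe set of their own, 5324 had a mean signal above the level of the fission yeast probe sets printed on the same array, and these were tested.

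Hydrogen peroxide oxidises thiols and iron-sulphur clusters. In budding yeast the transcription factors Yap1 and Skn7 switch on thioredoxins, peroxiredoxins and glutathione enzymes, and Msn2 and Msn4 switch on a general stress programme of chaperones, storage carbohydrates and alternative enzyme isoforms. The pentose phosphate pathway supplies the NADPH that these reducing systems consume, while ribosome synthesis and cell division are held back. Carnitine carries activated acetyl groups between peroxisome, cytosol and mitochondrion, and Saccharomyces cerevisiae takes it up from the medium because it does not make it.

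The mating-type label and the transcripts differed. The genotype label reads MATa, but the alpha-factor gene MF(ALPHA)1 had signals of 46478 to 51980 on the 8 arrays and the a-cell receptor gene STE2 had 84.3 to 241. LEU2, LYS2 and URA3, the deleted markers, lay at 3.87 to 4.09, at the level of fission yeast probe sets, whereas the HIS3 probe set read 10505 to 17056. The median signal of tested genes was 3179 and 3198 on the carnitine with peroxide arrays and 3159 and 3189 on the peroxide arrays. On the carnitine arrays the bacterial poly-A spike probe sets averaged 5.43 and 5.40 (log2), and on the control arrays 5.38 and 5.60. They averaged 5.33 and 5.43 on the carnitine with peroxide arrays, against 6.11 and 6.04 on the peroxide arrays, a difference of -0.70. Only the peroxide arrays thus stood apart from the other groups. Scaled to those spikes the median gene would stand 0.70 higher with carnitine, whereas with the deposited scaling it stood at 0.01. Every rise and fall below is relative to the deposited scaling. The part of total RNA or of spike handling in that difference was not tested.

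Cells given carnitine and peroxide differed from cells given peroxide alone in 1892 of 5324 tested genes, or 35.5%, at an adjusted p below 0.05. Of these, 1002 rose (18.8%) and 890 fell (16.7%). Scaled to the poly-A spikes there were 4633 rises and 81 falls, and scaled to the hybridisation spikes 704 and 384. Most differences were small: the median rise was 0.42 and the median fall -0.45 on the log2 scale, 513 of the called genes changed by less than 1.25-fold, and 197 changed at least 2-fold (95 higher, 102 lower). By comparison, 80 genes (1.5%) passed for carnitine against control without peroxide, and 3980 genes (74.8%) passed for peroxide against control. The test was limma's moderated test on log2 signals with all 8 arrays in 1 fit and Benjamini-Hochberg adjustment over all tested genes. With 2 cultures per group its p-values measure the spread between these cultures only. The number of calls depended on single arrays: it was 786 without peroxide replicate 2, 811 without carnitine with peroxide replicate 1 and 1236 without carnitine with peroxide replicate 2, against 1752 without peroxide replicate 1. Peroxide replicate 2 lay farther from the carnitine with peroxide mean than peroxide replicate 1 in 85.6% of the rises and 81.2% of the falls, and in 69.2% of all tested genes.

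**Figure D1:**
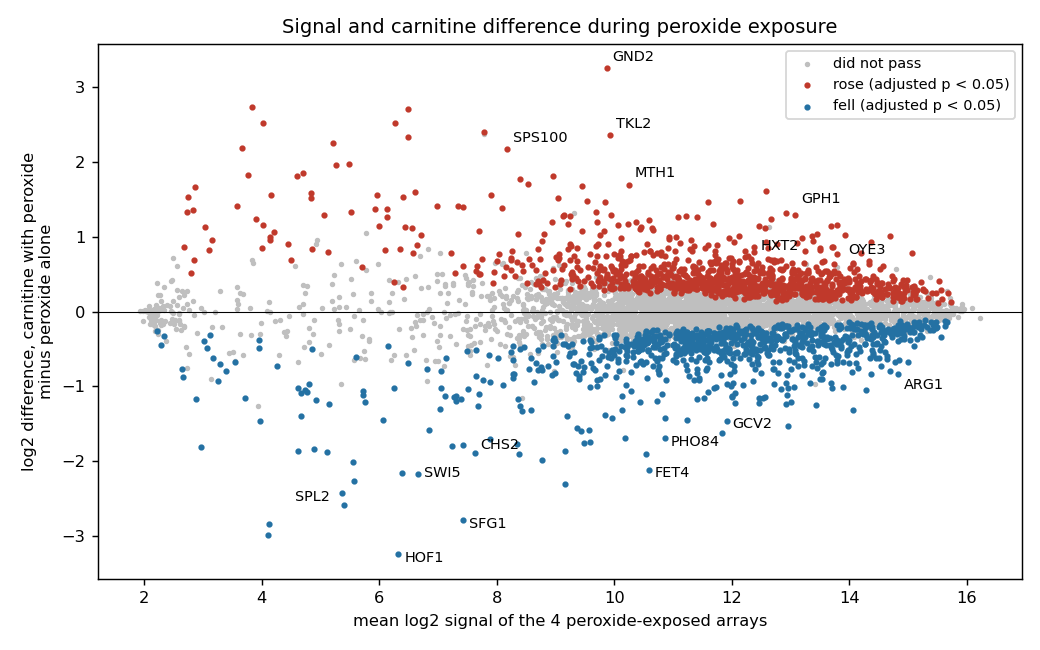
Each point is 1 of 5324 tested genes, placed by its mean log2 signal on the 4 peroxide-exposed arrays and its log2 difference, carnitine with peroxide minus peroxide alone. The 1002 rises are red and the 890 falls blue, and differences beyond 2-fold lie mostly at low and middle signals, where 10.1% of the dimmest of 4 equal sets of genes (by mean signal over the 8 arrays) passed with at least a 2-fold change against 1.2% of the brightest set.

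The highest rise belonged to GND2 (YGR256W), the minor isoform of 6-phosphogluconate dehydrogenase, which makes NADPH in the pentose phosphate pathway. Its signal was 3371 and 2486 with carnitine and peroxide, against 322 and 286 with peroxide alone, and the groups did not overlap, as in 73.5% of all tested genes. The signal was 9.55-fold higher, 3.25 ± 0.22 (log2 difference ± SE, adjusted p = 0.00131), and it was 10.5 and 13.6 with carnitine alone and 13.8 and 9.82 in the control. The minor transketolase gene TKL2 read 1995 and 2442 with carnitine and peroxide, against 466 and 398 with peroxide alone, a difference of 2.36 ± 0.34 (log2 difference ± SE, adjusted p = 0.00353), with 18.5 and 31.9 with carnitine alone and 35.8 and 19.2 in the control. Both genes were already higher with peroxide alone than in the control, GND2 by 4.71 and TKL2 by 4.04 on the log2 scale. In the pentose phosphate list 5 of 11 tested genes rose (45.5%) and 0 fell (0%), against 18.8% and 16.7% of all tested genes (rises 2 without carnitine with peroxide replicates 1 or 2 and 3 without control replicates 1 or 2, carnitine replicates 1 or 2 or peroxide replicates 1 or 2 or under hybridisation spike scaling). The other rises were SOL4, a 6-phosphogluconolactonase (0.55), its homologue SOL3 (0.15) and the ribose-5-phosphate isomerase RKI1 (0.16). Without peroxide, carnitine's difference for SOL4 had the opposite sign, -1.12 ± 0.16 (log2 difference ± SE, adjusted p = 0.0228). The list median was 0.10, and the largest differences in it were those of the minor isoforms GND2 and TKL2. The main isoforms GND1 and TKL1 differed by 0.10 (95% interval 0.00 to 0.19) and -0.02 (-0.14 to 0.10), and neither passed. SOL4 did not pass in 3 of the 8 fits that leave out 1 array, SOL3 in 7 and RKI1 in all 8. SOL3, GND1 and TKL1 were named after their values were seen.

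Another 13 genes completed the 15 highest rises among those with a mean signal of at least 100 in the higher group. FAT3, linked to fatty acid uptake, read 215 and 245 with carnitine and peroxide, against 71.4 and 17.1 with peroxide alone. It rose by 2.72 ± 0.54 (log2 difference ± SE, adjusted p = 0.00903). Its peroxide arrays lay far from each other, and without peroxide the signal was 3.89 to 3.90, below the fission yeast level of 4.14. SPS100, which encodes a protein of the spore wall, read 735 and 512 with carnitine and peroxide, against 202 and 91.4 with peroxide alone, and 4.14 to 4.16 on the 4 arrays without peroxide, at the fission yeast level. It rose by 2.17 ± 0.34 (log2 difference ± SE, adjusted p = 0.00428). MAL31, a maltose permease gene, read 694 and 644 with carnitine and peroxide, against 274 and 154 with peroxide alone, and 1042 and 1090.4 with carnitine alone and 1683 and 1435 in the control: here carnitine with peroxide lay between peroxide alone and the unexposed cultures, and the rise was 1.70 ± 0.24 (log2 difference ± SE, adjusted p = 0.00353). INP2, the peroxisomal receptor for the myosin that carries peroxisomes to the bud, behaved alike, with 442 and 385 with carnitine and peroxide, against 147 and 133 with peroxide alone and 1356 and 1408 with carnitine alone and 1259.8 and 1468 in the control. It rose by 1.56 ± 0.13 (log2 difference ± SE, adjusted p = 0.0016). The rest were the xylitol dehydrogenase gene XYL2 (2.52 ± 0.68), HBT1 (1.68 ± 0.19), the microtubule-associated IRC15 (1.59 ± 0.22) and the unnamed genes YJR115W (2.40 ± 0.51), YBR284W (2.34 ± 0.45), YPL113C (1.82 ± 0.17), YHR033W (1.77 ± 0.25) and YKR075C (1.61 ± 0.29), each as log2 difference ± SE. MTH1 is described with glucose sensing. XYL2 did not pass without peroxide replicate 1, peroxide replicate 2, carnitine with peroxide replicate 1 or carnitine with peroxide replicate 2 (adjusted p 0.0617 to 0.13). YJR115W did not pass without carnitine with peroxide replicate 1 or carnitine with peroxide replicate 2 (adjusted p 0.0506 to 0.0547).

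**Figure D2:**
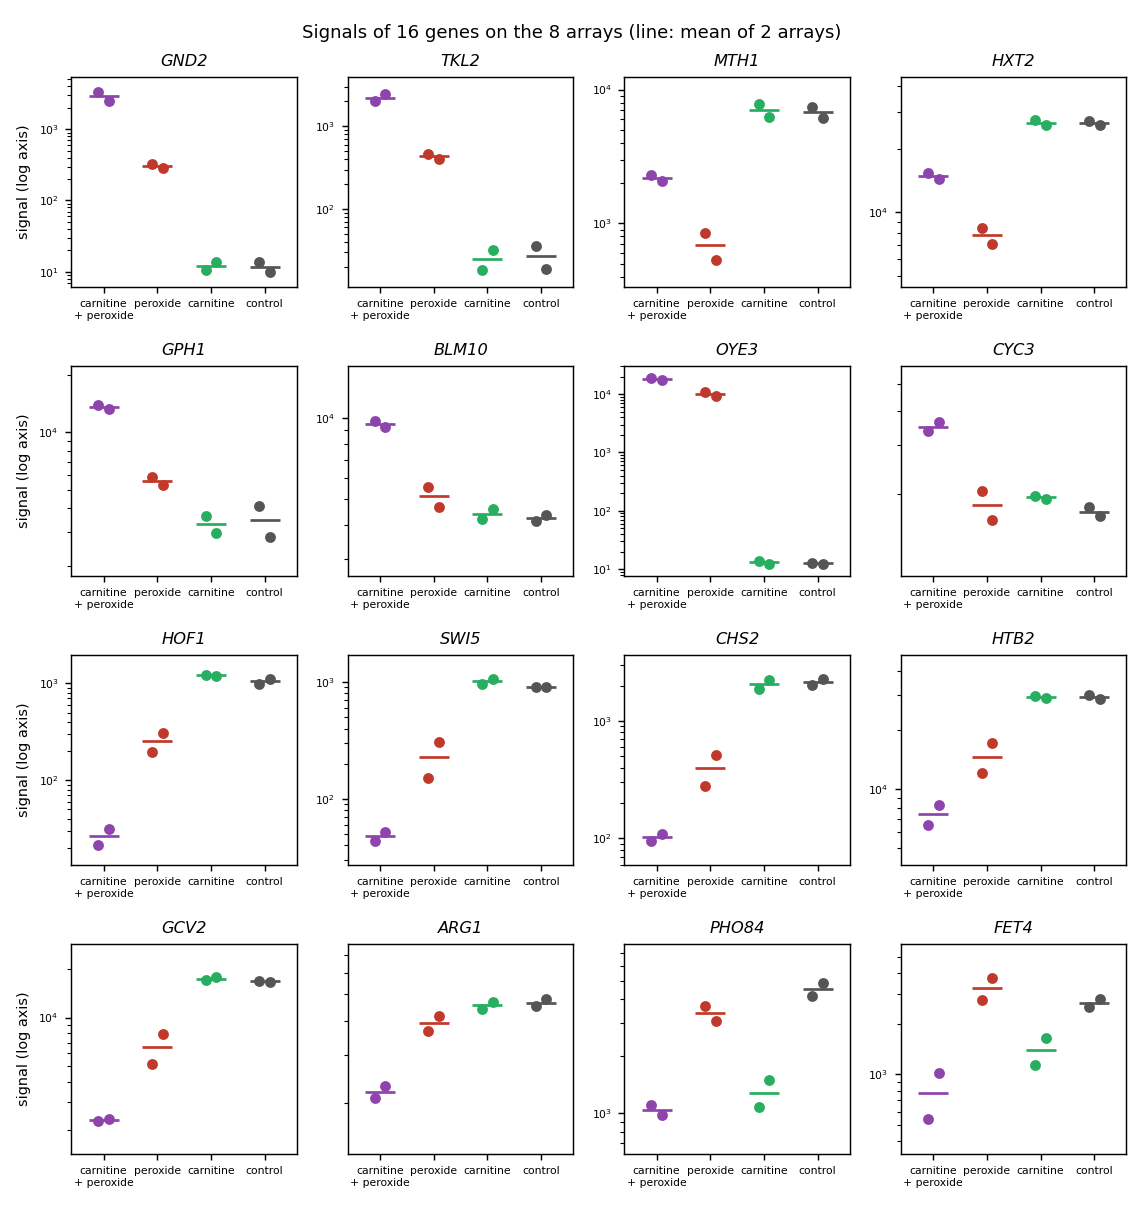
Signals of 16 genes on the 8 arrays, 2 points per group with a line at their mean, on a logarithmic axis; groups from left to right are carnitine with peroxide, peroxide, carnitine and control. GND2, TKL2, GPH1 and OYE3 are highest with both treatments, HOF1, SWI5, CHS2 and GCV2 are lowest with both, and PHO84 is low in both carnitine groups.

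Among antioxidant enzyme genes, 8 of those described here did not pass and had 95% intervals that spanned 0 and lay within a 2-fold change. SRX1 did not pass either, but its interval lay below 0. Of the others, 3 thioredoxin and peroxiredoxin genes rose, and peroxisomal catalase fell. The peroxiredoxin TSA1 read 63965 and 63052 with carnitine and peroxide, against 62174 and 59481 with peroxide alone, a difference of 0.06 with a 95% interval of -0.03 to 0.15. Corresponding differences were 0.03 (-0.05 to 0.12) for AHP1, 0.17 (-0.14 to 0.47) for TSA2, 0.07 (-0.01 to 0.16) for the thioredoxin TRX2, 0.04 (-0.10 to 0.19) for thioredoxin reductase TRR1, -0.01 (-0.13 to 0.10) for the thiol peroxidase GPX2, 0.02 (-0.10 to 0.14) for mitochondrial superoxide dismutase SOD2 and -0.07 (-0.27 to 0.12) for cytochrome c peroxidase CCP1, and none of them passed. In the deposited scaling these intervals lie within a 2-fold change in either direction for each of the 8 genes. Poly-A spike scaling would add 0.70 to each difference, so that range holds for the deposited scaling only. The signals of these 8 genes lie in the upper part of the array's range, where the array's response was not tested. Among 11 thioredoxin and peroxiredoxin genes 3 rose (27.3%) and 0 fell (0%), against 18.8% and 16.7% of all tested genes. The rises were mitochondrial TRX3 (0.52 ± 0.13) and PRX1 (0.40 ± 0.10) and cytosolic TRX1 (0.18 ± 0.048). The 3 rises became 0 without peroxide replicate 2 or carnitine with peroxide replicates 1 or 2. The sulfiredoxin SRX1, which repairs overoxidised peroxiredoxins, read 16418 and 16587 with carnitine and peroxide, against 21779 and 21282 with peroxide alone. Its difference of -0.38 (95% interval -0.76 to -0.0099) did not pass (adjusted p = 0.0985). In the list of catalases and superoxide dismutases 0 of 6 tested genes rose (0%) and 2 fell (33.3%), against 18.8% and 16.7% of all tested genes. The falls were CTA1 and the copper chaperone gene CCS1, which is neither a catalase nor a dismutase gene. CCS1 differed by -0.27 ± 0.072 (log2 difference ± SE, adjusted p = 0.0246). Peroxisomal catalase CTA1 read 2994 and 3677 with carnitine and peroxide, against 6105 and 7056 with peroxide alone and fell by 0.98 ± 0.31 on the log2 scale (SE, adjusted p = 0.0411). Cytosolic catalase CTT1 read 7520.1 and 8164 with carnitine and peroxide, against 13535 and 17568 with peroxide alone, a difference of -0.98 whose adjusted p was 0.0584. CTA1 did not pass without carnitine replicate 1, carnitine replicate 2, peroxide replicate 1, peroxide replicate 2, carnitine with peroxide replicate 1 or carnitine with peroxide replicate 2 (adjusted p 0.0591 to 0.18).

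Of the glutathione and glutaredoxin genes 7 of 21 tested genes rose (33.3%) and 2 fell (9.52%), against 18.8% and 16.7% of all tested genes (rises 4 without peroxide replicate 2 or carnitine with peroxide replicate 1). The glutathione transferase GTT1 read 15713 and 15095 with carnitine and peroxide, against 9762 and 7834 with peroxide alone. It rose by 0.82 ± 0.099 (log2 difference ± SE, adjusted p = 0.00289). ECM38, the gamma-glutamyltranspeptidase that breaks down glutathione, rose by 0.64 ± 0.08 (log2 difference ± SE, adjusted p = 0.00291), the vacuolar glutathione-conjugate pump YCF1 by 0.35 ± 0.055 (log2 difference ± SE, adjusted p = 0.00464), and glutathione synthetase GSH2 by 0.27 ± 0.05 (log2 difference ± SE, adjusted p = 0.00681). The gene of the first synthetic enzyme, GSH1, read 19278 and 20167 with carnitine and peroxide, against 23132 and 22104 with peroxide alone, a fall of 0.20 on the log2 scale that stood at 0.50 under poly-A spike scaling. In the list of Yap1-linked oxidoreductases and efflux pumps 2 of 19 tested genes rose (10.5%) and 1 fell (5.26%). OYE3, an old yellow enzyme, read 18889 and 17778 with carnitine and peroxide, against 10815 and 9332 with peroxide alone, with 13.9 and 12.3 with carnitine alone and 12.9 and 12.3 in the control. Its rise was 0.87 ± 0.12 (log2 difference ± SE, adjusted p = 0.00353), on top of a peroxide difference of 9.64. The transcription factor gene YAP1 itself did not pass (0.13, 95% interval -0.09 to 0.35). Among stress transcription factor genes 5 of 19 tested genes rose (26.3%) and 4 fell (21.1%) (rises 2 without peroxide replicate 2 or carnitine with peroxide replicate 1; falls 0 without carnitine with peroxide replicate 1 and 1 without peroxide replicate 2). PDR1, a regulator of drug efflux pumps, rose by 0.58 ± 0.082 (log2 difference ± SE, adjusted p = 0.00353), and GIS1, a regulator of nutrient-limitation genes, by 0.81 ± 0.15 (log2 difference ± SE, adjusted p = 0.00641). CIN5, a Yap-family factor, read 4759.6 and 5390.0 with carnitine and peroxide, against 9190.2 and 15540.3 with peroxide alone and fell by 1.24 ± 0.23 on the log2 scale (SE, adjusted p = 0.00756), and YAP7 fell by 0.76 ± 0.16 on the log2 scale (SE, adjusted p = 0.0107). CIN5 did not pass without carnitine with peroxide replicate 1 (adjusted p = 0.0523). YAP7 did not pass without peroxide replicate 2 or carnitine with peroxide replicate 1 (adjusted p 0.0586 to 0.0717). GSH1 did not pass without peroxide replicate 1 or carnitine with peroxide replicate 1 (adjusted p 0.0767 to 0.121).

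Genes of glucose sensing and hexose transport rose together: 12 of 18 tested genes rose (66.7%) and 1 fell (5.56%), against 18.8% and 16.7% of all tested genes, and the list median was 0.65. No left-out array moved the 12 rises by more than 1.5 times. With peroxide alone the list's median was -0.81 relative to the control. MTH1, a repressor that keeps hexose transporter genes off when glucose is absent, read 2291 and 2076 with carnitine and peroxide, against 844 and 537 with peroxide alone, and 7744 and 6267 with carnitine alone and 7441 and 6109.9 in the control. It rose by 1.70 ± 0.21 (log2 difference ± SE, adjusted p = 0.00291) over peroxide alone. The high-affinity transporter HXT2 read 15351 and 14416 with carnitine and peroxide, against 8477 and 7091 with peroxide alone, and 27490.3 and 25987 with carnitine alone and 27089 and 25999 in the control. It rose by 0.94 ± 0.085 (log2 difference ± SE, adjusted p = 0.00204). The glucose repressor MIG1 rose by 0.92 ± 0.12 (log2 difference ± SE, adjusted p = 0.00304) and the low-affinity transporter HXT3 by 0.35 ± 0.04 (log2 difference ± SE, adjusted p = 0.00263). In each of these 4 genes both carnitine with peroxide arrays lay between the peroxide and the unexposed arrays. The transporter HXT5, named after its values were seen, read 546 and 467 with carnitine and peroxide, against 85.2 and 110.4 with peroxide alone, but with 77.1 and 9.18 in the control its wide spread left a difference of 2.38 at an adjusted p of 0.0547. The glycolytic enzymes did not share this pattern, since 0 of 17 tested genes rose (0%) and 1 fell (5.88%) with a median of 0.02.

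In storage carbohydrate metabolism 9 of 20 tested genes rose (45%) and 1 fell (5%), against 18.8% and 16.7% of all tested genes, and the list median was 0.31 (rises 5 without carnitine with peroxide replicate 1). Glycogen phosphorylase GPH1 read 13912 and 13275 with carnitine and peroxide, against 5804 and 5272 with peroxide alone, with 3661 and 2953 with carnitine alone and 4113 and 2837 in the control. It rose by 1.30 ± 0.17 (log2 difference ± SE, adjusted p = 0.00321). The debranching enzyme GDB1 rose by 1.27 ± 0.18 (log2 difference ± SE, adjusted p = 0.00356) and PIG1, a targeting subunit for the phosphatase that activates glycogen synthase, by 1.39 ± 0.18 (log2 difference ± SE, adjusted p = 0.00302). Phosphoglucomutase PGM2 read 17786 and 18173 with carnitine and peroxide, against 11076 and 8884 with peroxide alone. It rose by 0.86 ± 0.11 (log2 difference ± SE, adjusted p = 0.00291), while carnitine without peroxide lowered it, with 2062 and 1823 with carnitine alone and 3099.9 and 3109 in the control. In the general stress list linked to Msn2 and Msn4, 13 of 37 tested genes rose (35.1%) and 1 fell (2.70%). Fewer rose without peroxide replicate 2 or carnitine with peroxide replicate 1. Among the rises were TFS1 (0.93 ± 0.14), the aldose reductase GRE3 (0.58 ± 0.063) and ICT1 (0.67 ± 0.12). With peroxide alone, relative to the control, TFS1 (2.67) and GRE3 (1.39) were higher but ICT1 (-0.81) was lower.

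The proteasome had the highest share of rises of the 46 lists, 72.2%: 26 of 36 tested genes rose (72.2%) and 0 fell (0%), and all 36 differences were positive, with a median of 0.23. Of all tested genes 18.8% rose. Most proteasome rises were small, and they numbered 9 without peroxide replicate 2 or carnitine with peroxide replicate 1 and 12 under hybridisation spike scaling. BLM10, which encodes a proteasome activator, read 9775 and 9252 with carnitine and peroxide, against 5564 and 4673 with peroxide alone, with 4210.1 and 4589.6 with carnitine alone and 4140.2 and 4352 in the control. It rose by 0.90 ± 0.093 (log2 difference ± SE, adjusted p = 0.00216). ECM29, which encodes a protein that stabilises the assembled proteasome, read 7558 and 6869 with carnitine and peroxide, against 4364 and 3569 with peroxide alone. It rose by 0.87 ± 0.11 (log2 difference ± SE, adjusted p = 0.00289). The catalytic subunit gene PUP1 rose by 0.52 ± 0.062 (log2 difference ± SE, adjusted p = 0.00289) and the ubiquitin receptor RPN10 by 0.40 ± 0.054 (log2 difference ± SE, adjusted p = 0.00332). RPN4, the transcription factor of proteasome genes, went the other way, with 10162 and 10914 with carnitine and peroxide, against 12947 and 14855 with peroxide alone and a fall of 0.40 ± 0.085 on the log2 scale (SE, adjusted p = 0.0114), which read 0.30 under poly-A spike scaling. In ubiquitin handling 11 of 19 tested genes rose (57.9%) and 1 fell (5.26%) (rises 6 without peroxide replicate 2 and 7 without carnitine with peroxide replicate 1), led by the conjugating enzyme UBC5 (0.81 ± 0.084), the Cdc48 cofactor SHP1 (0.55 ± 0.073) and the ligase UBR1 (0.45 ± 0.063). RPN4 did not pass without peroxide replicate 2 or carnitine with peroxide replicate 1 (adjusted p 0.0679 to 0.0734).

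Of the chaperone genes 4 of 29 tested genes rose (13.8%) and 6 fell (20.7%), near the 18.8% and 16.7% of all tested genes, and the median was 0.02 (rises 1 without peroxide replicate 2 or carnitine with peroxide replicate 1 and 2 without peroxide replicate 1 or carnitine with peroxide replicate 2). BTN2, which encodes a protein that sequesters misfolded proteins, read 9416 and 12466 with carnitine and peroxide, against 22637 and 32528 with peroxide alone, with 1087 and 1126 with carnitine alone and 1229 and 1431 in the control. It fell by 1.32 ± 0.19 on the log2 scale (SE, adjusted p = 0.00353). Its paralogue CUR1 read 1368 and 1562 with carnitine and peroxide, against 3134 and 5114 with peroxide alone and fell by 1.45 ± 0.23 on the log2 scale (SE, adjusted p = 0.00478). The Hsp90 co-chaperone AHA1 rose by 0.39 ± 0.059 (log2 difference ± SE, adjusted p = 0.00404).

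Genes of mitosis and cytokinesis were mostly lower with carnitine and peroxide than with peroxide alone: 1 of 25 tested genes rose (4%) and 16 fell (64%), against 18.8% and 16.7% of all tested genes, and the list median was -0.73 (-0.03 under poly-A spike scaling). No left-out array moved the 16 falls by more than 1.5 times. HOF1, an F-BAR protein of the cytokinetic ring, read 21.5 and 31.5 with carnitine and peroxide, against 197 and 311 with peroxide alone, with 1227 and 1198 with carnitine alone and 994 and 1114 in the control. It fell by 3.25 ± 0.25 on the log2 scale (SE, adjusted p = 0.00149) and was 9.52-fold higher with peroxide alone. SWI5, the transcription factor of late mitosis, read 43.9 and 52.2 with carnitine and peroxide, against 150.2 and 309 with peroxide alone, with 966 and 1063 with carnitine alone and 897 and 903 in the control. It fell by 2.17 ± 0.30 on the log2 scale (SE, adjusted p = 0.00334). CHS2, the chitin synthase of the septum, read 95.7 and 109.8 with carnitine and peroxide, against 278 and 518 with peroxide alone and fell by 1.89 ± 0.27 on the log2 scale (SE, adjusted p = 0.00353). BUD4, a bud-site protein related to anillin, read 171 and 172 with carnitine and peroxide, against 502 and 824 with peroxide alone and fell by 1.90 ± 0.21 on the log2 scale (SE, adjusted p = 0.00243). The 1 rise was the B-type cyclin gene CLB3 (0.41), named after its values were seen. CLB3 did not pass without carnitine with peroxide replicate 2 (adjusted p = 0.0609).

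Of the Start and G1 genes 6 of 31 tested genes rose (19.4%) and 10 fell (32.3%), against 18.8% and 16.7% of all tested genes (rises 2 without peroxide replicate 2 and 3 without carnitine with peroxide replicate 1; falls 6 without carnitine with peroxide replicate 2). The Pho85 cyclin PCL2 read 357 and 422 with carnitine and peroxide, against 1039.5 and 1657 with peroxide alone, with 579 and 675 with carnitine alone and 465 and 527 in the control. It fell by 1.76 ± 0.22 on the log2 scale (SE, adjusted p = 0.00291), and its carnitine with peroxide signals lay below those of every other group. Against the control, however, the PCL2 difference of -0.35 did not pass (adjusted p = 0.184), while peroxide alone stood 1.41 above the control. The Cdc42 effector GIC2 fell by 0.97 ± 0.16 on the log2 scale (SE, adjusted p = 0.00481), and the ribonucleotide reductase subunit RNR1 rose by 0.98 ± 0.12 (log2 difference ± SE, adjusted p = 0.00289), with 5962 and 5229 with carnitine and peroxide, against 3108 and 2582 with peroxide alone. Of the histone genes 0 of 10 tested genes rose (0%) and 4 fell (40%) (falls 2 without peroxide replicate 2 or carnitine with peroxide replicate 1 or under hybridisation spike scaling). HTB2, one of the H2B genes, read 6535 and 8274 with carnitine and peroxide, against 12040.3 and 17042 with peroxide alone. It fell by 0.96 ± 0.16 on the log2 scale (SE, adjusted p = 0.00547). Among pheromone response genes 0 of 25 tested genes rose (0%) and 14 fell (56%), with a median of -0.50, or 0.20 under poly-A spike scaling. The falls numbered 2 without peroxide replicate 2 or carnitine with peroxide replicate 2, 4 without carnitine with peroxide replicate 1 and 9 without control replicates 1 or 2 or carnitine replicates 1 or 2. The cell-fusion gene FUS1 read 4109.7 and 4033 with carnitine and peroxide, against 6880.3 and 11846 with peroxide alone. It fell by 1.15 ± 0.21 on the log2 scale (SE, adjusted p = 0.00685). The mitogen-activated kinase KSS1 fell by 0.75 ± 0.11 on the log2 scale (SE, adjusted p = 0.004).

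Other leading falls included SFG1, a regulator of filamentous growth, with 77.5 and 54.8 with carnitine and peroxide, against 296 and 692 with peroxide alone and 4383 and 4428 with carnitine alone and 4117 and 3826 in the control. It fell by 2.80 ± 0.36 on the log2 scale (SE, adjusted p = 0.00291). TOS6, a wall protein gene, read 26.0 and 11.4 with carnitine and peroxide, against 67.1 and 161 with peroxide alone and 3944 and 2426 with carnitine alone and 3291 and 3043 in the control. It fell by 2.59 ± 0.49 on the log2 scale (SE, adjusted p = 0.00793). The low-affinity iron transporter FET4 read 539.8 and 1015 with carnitine and peroxide, against 2763 and 3735 with peroxide alone and 1138 and 1653 with carnitine alone and 2523 and 2811 in the control, and fell by 2.12 ± 0.31 on the log2 scale (SE, adjusted p = 0.00356). The sirohaem synthase MET8, needed for sulphite reduction, read 98.3 and 88.1 with carnitine and peroxide, against 347 and 296 with peroxide alone and fell by 1.78 ± 0.18 on the log2 scale (SE, adjusted p = 0.00216). The wall mannoprotein TIR1 read 561 and 1058 with carnitine and peroxide, against 2628 and 3172 with peroxide alone and fell by 1.91 ± 0.26 on the log2 scale (SE, adjusted p = 0.00332). The remaining falls among the highest 15 were ECM13 (-2.31 ± 0.43), YGR126W (-2.27 ± 0.36), the transcription factor gene MGA1 (-2.17 ± 0.56), the pheromone-regulated PRM6 (-1.99 ± 0.38), BAG7 (-1.87 ± 0.31) and AIM20 (-1.80 ± 0.32). ECM13 did not pass without peroxide replicate 2 (adjusted p = 0.05). MGA1 did not pass without peroxide replicate 2, carnitine with peroxide replicate 1 or carnitine with peroxide replicate 2 (adjusted p 0.08 to 0.0988).

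**Figure D3:**
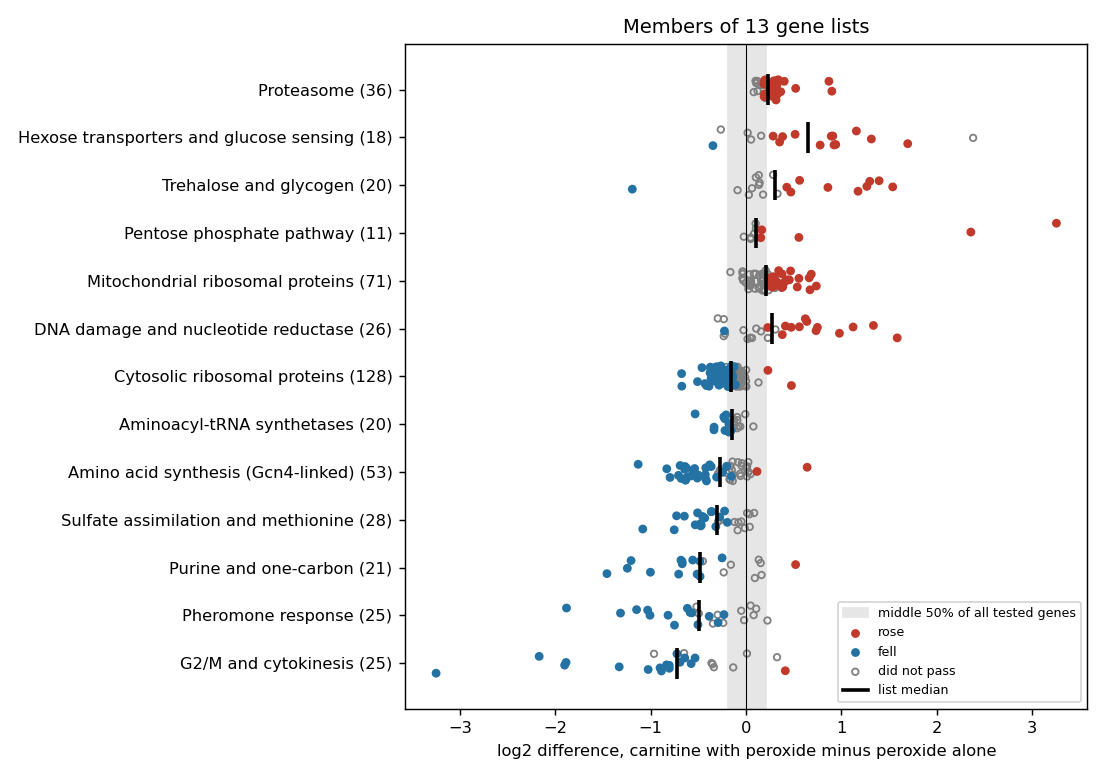
Log2 differences, carnitine with peroxide minus peroxide alone, of the members of 13 gene lists (number tested in brackets), with rises red, falls blue, genes that did not pass open, and list medians as black bars. Hexose transport genes spread upward around a median of 0.65, proteasome genes cluster at 0.23, and mitosis genes extend down to -3.25.

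For Gcn4-linked amino acid synthesis 2 of 53 tested genes rose (3.77%) and 28 fell (52.8%), against 18.8% and 16.7% of all tested genes, with a median of -0.28, or 0.42 under poly-A spike scaling (falls 16 without carnitine with peroxide replicate 1 and 18 without peroxide replicate 2 or under hybridisation spike scaling). Peroxide alone had left the list's median at 0.02 relative to the control. Argininosuccinate synthetase ARG1 read 20791 and 23105 with carnitine and peroxide, against 36536 and 41674 with peroxide alone, with 44286 and 46892 with carnitine alone and 45291 and 47872 in the control. It fell by 0.83 ± 0.078 on the log2 scale (SE, adjusted p = 0.00204). The histidine pathway gene HIS4 read 18698 and 21476 with carnitine and peroxide, against 32762 and 37037 with peroxide alone and fell by 0.80 ± 0.079 on the log2 scale (SE, adjusted p = 0.00204). In sulfate assimilation and methionine synthesis 0 of 28 tested genes rose (0%) and 17 fell (60.7%), with a median of -0.31, or 0.39 under poly-A spike scaling (falls 6 without carnitine with peroxide replicate 1, 8 under hybridisation spike scaling and 11 without peroxide replicates 1 or 2). MET16, the enzyme that reduces activated sulfate, read 13305 and 14562 with carnitine and peroxide, against 24035 and 22928 with peroxide alone, with 13133 and 13654 with carnitine alone and 13899 and 12711 in the control. It fell by 0.75 ± 0.066 on the log2 scale (SE, adjusted p = 0.00204). The cystathionine beta-lyase STR3 fell by 1.08 ± 0.18 on the log2 scale (SE, adjusted p = 0.00519).

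In purine and one-carbon metabolism 1 of 21 tested genes rose (4.76%) and 13 fell (61.9%), against 18.8% and 16.7% of all tested genes, with a median of -0.48 (0.21 under poly-A spike scaling), and no left-out array moved the falls by more than 1.5 times. Glycine decarboxylase GCV2 read 2294 and 2354 with carnitine and peroxide, against 5157 and 7921 with peroxide alone, with 17006 and 17902 with carnitine alone and 16856 and 16668 in the control. It fell by 1.46 ± 0.17 on the log2 scale (SE, adjusted p = 0.00263). GCV1, another subunit of the glycine cleavage complex, fell by 1.003 ± 0.14 on the log2 scale (SE, adjusted p = 0.00336). ADE17, an enzyme of the last steps of purine synthesis, read 6815 and 7664 with carnitine and peroxide, against 14344 and 20475 with peroxide alone, with 40209.8 and 39479 with carnitine alone and 39353 and 40889.9 in the control. It fell by 1.25 ± 0.15 on the log2 scale (SE, adjusted p = 0.00284). Each of these 3 genes was already low with peroxide alone and lower with both treatments. Among amino acid permeases 10 of 20 tested genes rose (50%) and 1 fell (5%), with a median of 0.23 (rises 4 without peroxide replicate 2 or carnitine with peroxide replicate 1). The general permease GAP1 read 8740.2 and 8123 with carnitine and peroxide, against 4476 and 4401 with peroxide alone. It rose by 0.92 ± 0.057 (log2 difference ± SE, adjusted p = 0.000969). The proline permease PUT4 read 47.8 and 31.4 with carnitine and peroxide, against 8.37 and 5.40 with peroxide alone. It rose by 2.53 ± 0.28 (log2 difference ± SE, adjusted p = 0.00243) at low signal. ALP1, a permease of basic amino acids, had 15.3 and 11.1 with carnitine and peroxide but lay at the fission yeast level of 4.14 with peroxide alone (4.09 and 4.10), so only a bound is given: it was at least 3.14-fold higher (adjusted p = 0.0016).

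In the deposited scaling the called cytosolic ribosomal protein genes were mostly falls and the called mitochondrial ones were rises. Among cytosolic ribosomal protein genes 2 of 128 tested genes rose (1.56%) and 65 fell (50.8%), against 18.8% and 16.7% of all tested genes, with a median of -0.16, or 0.54 under poly-A spike scaling (falls 5 under hybridisation spike scaling, 22 without carnitine with peroxide replicate 1 and 28 without peroxide replicate 2). Some of the 24 of them whose probe set is shared with another sequence may report a mixture. RPS26B read 24079.8 and 28004 with carnitine and peroxide, against 39931 and 43150.2 with peroxide alone, with 55933 and 53121 with carnitine alone and 56239.9 and 53497 in the control. It fell by 0.68 ± 0.077 on the log2 scale (SE, adjusted p = 0.00263). Of the mitochondrial ribosomal protein genes 24 of 71 tested genes rose (33.8%) and 0 fell (0%), with a median of 0.21 (rises 7 without peroxide replicate 2 and 9 without carnitine with peroxide replicate 1). MRP1 read 9314 and 8383 with carnitine and peroxide, against 5902 and 5228 with peroxide alone. It rose by 0.67 ± 0.079 (log2 difference ± SE, adjusted p = 0.00289). RSM22 rose by 0.74 ± 0.11 (log2 difference ± SE, adjusted p = 0.00353). Of the aminoacyl-tRNA synthetase genes 0 of 20 tested genes rose (0%) and 10 fell (50%), at a median of -0.15, or 0.55 under poly-A spike scaling (falls 1 under hybridisation spike scaling, 3 without peroxide replicate 2 and 4 without carnitine with peroxide replicates 1 or 2). WRS1, for tryptophan, read 9067 and 8695 with carnitine and peroxide, against 12485 and 13248 with peroxide alone and fell by 0.53 ± 0.05 on the log2 scale (SE, adjusted p = 0.00204). The ribosome biogenesis list had a median of -0.95 in peroxide alone relative to the control. With carnitine and peroxide 26 of 112 tested genes rose (23.2%) and 9 fell (8.04%), at a median of 0.11 (rises 10 without peroxide replicate 2 or carnitine with peroxide replicate 1, 14 without carnitine with peroxide replicate 2 and 15 under hybridisation spike scaling; falls 1 under hybridisation spike scaling, 2 without peroxide replicate 2 or carnitine with peroxide replicate 1, 4 without carnitine with peroxide replicate 2 and 5 without peroxide replicate 1). MAK16 read 2270.3 and 1936 with carnitine and peroxide, against 1286 and 1197 with peroxide alone. It rose by 0.76 ± 0.092 (log2 difference ± SE, adjusted p = 0.00289). REI1 rose by 0.75 ± 0.085 (log2 difference ± SE, adjusted p = 0.00262). Among RNA polymerase I and III genes 10 of 35 tested genes rose (28.6%) and 1 fell (2.86%) (rises 5 without peroxide replicate 2 or carnitine with peroxide replicate 1), with the polymerase I initiation factor RRN7 at 1.41 ± 0.22 (log2 difference ± SE, adjusted p = 0.00423).

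The carnitine shuttle list held the genes that handle carnitine and the citrate synthase gene CIT2. In it 1 of 6 tested genes rose (16.7%) and 1 fell (16.7%), near the 18.8% and 16.7% of all tested genes. CIT2 read 31052 and 27121 with carnitine and peroxide, against 34119 and 35992 with peroxide alone. Its difference of -0.27 did not pass (adjusted p = 0.0945). The uptake gene AGP2 read 1616 and 948 with carnitine and peroxide, against 1527 and 1518 with peroxide alone, a difference of -0.30 (95% interval -0.99 to 0.39). The carnitine acetyltransferase genes CAT2 and YAT2 differed from each other: CAT2, of mitochondria and peroxisomes, read 1050.4 and 997 with carnitine and peroxide, against 1313 and 1189 with peroxide alone and did not pass (adjusted p = 0.156), whereas YAT2, of the cytosol, read 1412 and 1347 with carnitine and peroxide, against 2557 and 2639.9 with peroxide alone and fell by 0.91 ± 0.12 on the log2 scale (SE, adjusted p = 0.00294). YAT1 stayed between 4.73 and 5.57 on all 8 arrays. The mitochondrial carnitine carrier CRC1 read 11.2 and 11.6 with carnitine and peroxide, against 4.72 and 4.21 with peroxide alone. It rose by 1.35 ± 0.083 (log2 difference ± SE, adjusted p = 0.000969), but these signals lie close to the fission yeast level of 4.14. In acetaldehyde and acetyl-CoA supply 4 of 12 tested genes rose (33.3%) and 3 fell (25%) (rises 2 without peroxide replicate 2 or carnitine with peroxide replicate 1 or under hybridisation spike scaling; falls 1 without peroxide replicate 2 or carnitine with peroxide replicate 1). The mitochondrial aldehyde dehydrogenase ALD4 read 25549 and 23909.9 with carnitine and peroxide, against 15913 and 12891 with peroxide alone. It rose by 0.79 ± 0.095 (log2 difference ± SE, adjusted p = 0.00289). Of the beta-oxidation genes 3 of 16 tested genes rose (18.8%) and 1 fell (6.25%) (rises 0 without peroxide replicate 2 or carnitine with peroxide replicate 1 and 1 without peroxide replicate 1 or under hybridisation spike scaling).

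CYC3, the lyase that attaches haem to cytochrome c, read 3381 and 3644 with carnitine and peroxide, against 2044 and 1608 with peroxide alone, with 1963 and 1918 with carnitine alone and 1788 and 1652 in the control. It rose by 0.95 ± 0.12 (log2 difference ± SE, adjusted p = 0.00291), while the cytochrome c genes CYC1 and CYC7 differed by -0.21 (-0.38 to -0.05) and -0.25 (-0.80 to 0.30) and did not pass. Among subunits of the respiratory complexes and ATP synthase 3 of 34 tested genes rose (8.82%) and 11 fell (32.4%), against 18.8% and 16.7% of all tested genes, at a median of -0.18, or 0.51 under poly-A spike scaling (rises 1 without peroxide replicates 1 or 2 or carnitine with peroxide replicates 1 or 2 or under hybridisation spike scaling; falls 2 without peroxide replicate 2 or carnitine with peroxide replicate 1, 3 under hybridisation spike scaling and 5 without carnitine with peroxide replicate 2). The external NADH dehydrogenase NDE2 was among the rises, with 291 and 240.3 with carnitine and peroxide, against 121 and 82.3 with peroxide alone and 1.41 ± 0.20 (log2 difference ± SE, adjusted p = 0.00339). In the tricarboxylic acid cycle 3 of 17 tested genes rose (17.6%) and 6 fell (35.3%) (rises 1 without peroxide replicate 2 or carnitine with peroxide replicate 1 or under hybridisation spike scaling; falls 3 under hybridisation spike scaling). Aconitase ACO1, an iron-sulphur enzyme, read 14344 and 17391 with carnitine and peroxide, against 25865 and 30976 with peroxide alone, with 23677 and 24828 with carnitine alone and 25825 and 25590.5 in the control. It fell by 0.84 ± 0.11 on the log2 scale (SE, adjusted p = 0.00291). The succinyl-CoA ligase subunit LSC2 rose by 0.64 ± 0.092 (log2 difference ± SE, adjusted p = 0.00353).

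In the iron regulon 13 of 35 tested genes rose (37.1%) and 6 fell (17.1%), against 18.8% and 16.7% of all tested genes, at a median of 0.24 (rises 4 without peroxide replicate 2 or carnitine with peroxide replicate 1). The wall mannoprotein FIT3, which helps retain siderophore iron, read 14673 and 16496 with carnitine and peroxide, against 8665 and 8652 with peroxide alone, with 641 and 591 with carnitine alone and 847 and 698 in the control. It rose by 0.85 ± 0.11 (log2 difference ± SE, adjusted p = 0.00304). AFT2, a transcription factor of the iron regulon, read 6952 and 6952 with carnitine and peroxide, against 10852 and 12172 with peroxide alone and fell by 0.73 ± 0.097 on the log2 scale (SE, adjusted p = 0.00323). Among zinc and copper genes 6 of 16 tested genes rose (37.5%) and 0 fell (0%) (rises 3 without carnitine with peroxide replicate 1). The zinc-responsive membrane protein gene IZH4 read 9069 and 7776 with carnitine and peroxide, against 4866 and 2966 with peroxide alone. It rose by 1.14 ± 0.22 (log2 difference ± SE, adjusted p = 0.00756). In the phosphate regulon 1 of 23 tested genes rose (4.35%) and 6 fell (26.1%). The phosphate transporter PHO84 read 1102 and 979 with carnitine and peroxide, against 3674 and 3080.0 with peroxide alone, with 1081 and 1492 with carnitine alone and 4171 and 4905 in the control, so both carnitine groups were low, and the fall under peroxide was 1.70 ± 0.17 on the log2 scale (SE, adjusted p = 0.00204). SPL2, a regulator of low-affinity phosphate uptake, read 19.4 and 16.3 with carnitine and peroxide, against 116 and 79.9 with peroxide alone, with 74.1 and 78.6 with carnitine alone and 349 and 503 in the control, and fell by 2.43 ± 0.23 on the log2 scale (SE, adjusted p = 0.00204). IZH4 did not pass without carnitine with peroxide replicate 1 (adjusted p = 0.0533).

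Of the DNA damage and nucleotide reductase genes 13 of 26 tested genes rose (50%) and 1 fell (3.85%), against 18.8% and 16.7% of all tested genes, at a median of 0.27 (rises 5 without peroxide replicate 2 or carnitine with peroxide replicate 1 and 7 without carnitine with peroxide replicate 2). HUG1, a damage-induced inhibitor of ribonucleotide reductase, read 2629.7 and 2105 with carnitine and peroxide, against 1215 and 962 with peroxide alone. It rose by 1.12 ± 0.17 (log2 difference ± SE, adjusted p = 0.00378). The recombination gene RAD52 read 4642 and 4299 with carnitine and peroxide, against 3057 and 2758 with peroxide alone. It rose by 0.62 ± 0.089 (log2 difference ± SE, adjusted p = 0.00353). The silencing deacetylase SIR2 rose by 0.91 ± 0.12 (log2 difference ± SE, adjusted p = 0.00306), as 1 of 8 genes in its list. In sterol synthesis 13 of 34 tested genes rose (38.2%) and 1 fell (2.94%) (rises 7 without carnitine with peroxide replicate 1 and 8 under hybridisation spike scaling), with differences of ERG3 (0.49 ± 0.073) and ERG1 (0.40 ± 0.062) for enzymes of the pathway. Among choline and phospholipid genes 6 of 19 tested genes rose (31.6%) and 1 fell (5.26%) (rises 3 without carnitine with peroxide replicate 1). INO2, the activator of phospholipid synthesis genes, rose by 1.08 ± 0.15 (log2 difference ± SE, adjusted p = 0.00353), and the choline transporter HNM1 did not pass (0.04, -0.25 to 0.33). In the wall list 5 of 32 tested genes rose (15.6%) and 7 fell (21.9%) (rises 3 without peroxide replicate 2; falls 2 without peroxide replicate 2 or carnitine with peroxide replicate 1), with HPF1 at 3253 and 4208 with carnitine and peroxide, against 1626 and 1436 with peroxide alone. It rose by 1.28 ± 0.14 (log2 difference ± SE, adjusted p = 0.00263). Of the autophagy genes 7 of 29 tested genes rose (24.1%) and 2 fell (6.90%) (rises 1 without peroxide replicate 2 or carnitine with peroxide replicate 1 and 3 without carnitine with peroxide replicate 2), and the vacuolar ATG22 (0.68 ± 0.097) was among the rises. In the unfolded protein response 3 of 16 tested genes rose (18.8%) and 4 fell (25%) (rises 0 under hybridisation spike scaling and 1 without peroxide replicate 2 or carnitine with peroxide replicates 1 or 2; falls 1 under hybridisation spike scaling and 2 without peroxide replicates 1 or 2 or carnitine with peroxide replicates 1 or 2). Among vacuole and V-ATPase genes 3 of 21 tested genes rose (14.3%) and 1 fell (4.76%) (rises 1 under hybridisation spike scaling and 5 without carnitine with peroxide replicate 2). Among origin licensing genes 3 of 15 tested genes rose (20%) and 1 fell (6.67%) (rises 0 without peroxide replicate 2 or carnitine with peroxide replicate 1). In daughter-cell separation 2 of 13 tested genes rose (15.4%) and 4 fell (30.8%) (falls 0 without peroxide replicate 2 or carnitine with peroxide replicate 1 or under hybridisation spike scaling). For cytochrome c and haem 2 of 15 tested genes rose (13.3%) and 3 fell (20%) (falls 0 without peroxide replicate 2 or carnitine with peroxide replicates 1 or 2 and 1 without carnitine replicates 1 or 2 or under hybridisation spike scaling). In the glyoxylate cycle and gluconeogenesis 2 of 13 tested genes rose (15.4%) and 1 fell (7.69%). Over the 46 lists, 26 of 30 counts of 1 or 2 members also moved by more than 1.5 times under a left-out array or hybridisation spike scaling.

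**Figure D4:**
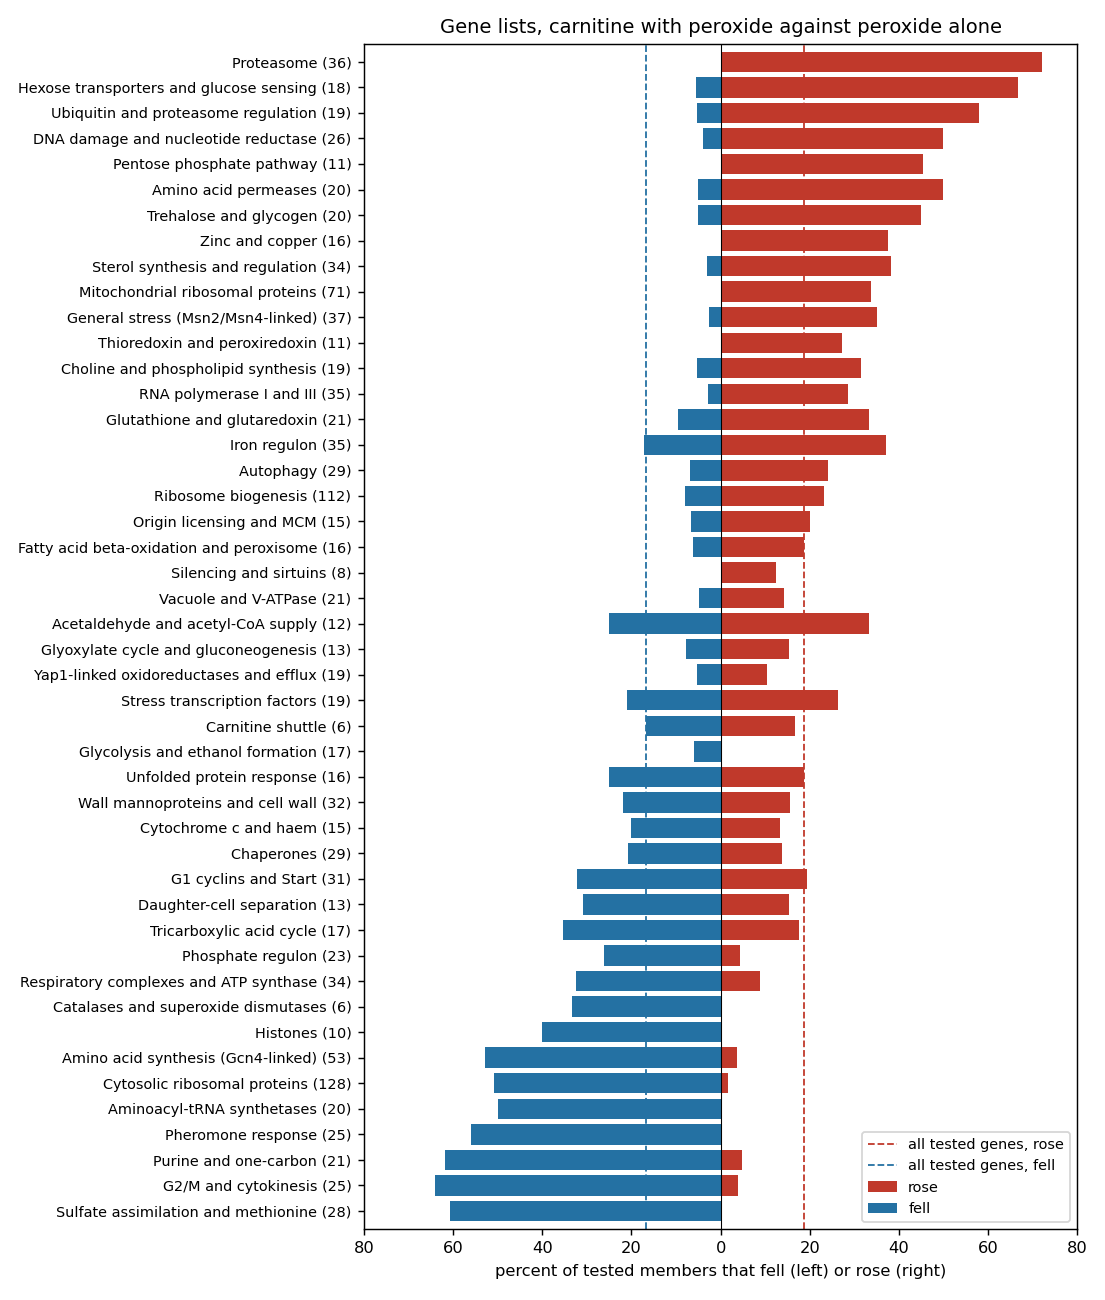
Percent of the tested members of each of 46 lists that rose (right, red) or fell (left, blue) in carnitine with peroxide against peroxide alone, with the number tested in brackets and dashed lines at the shares over all tested genes, 18.8% and 16.7%. Proteasome, hexose transport and ubiquitin lists reach farthest right, and mitosis, purine and sulfate lists farthest left.

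Carnitine's difference under peroxide was set against its difference without peroxide, which rests on the other 4 arrays. The interaction, the first difference minus the second, passed for 683 genes (12.8%), 411 positive (7.72%) and 272 negative (5.11%), and 612 of the 1892 genes changed under peroxide were among them. This count leaned on every array but peroxide replicate 1. It fell by more than 1.5 times when any 1 of the other arrays was left out, and it rose without peroxide replicate 1. GND2 had an interaction of 3.21 ± 0.32 (SE, adjusted p = 0.00891), HOF1 of -3.46 ± 0.35 (0.00891) and ATO2, a putative ammonium transporter gene, of 2.37 ± 0.24 (0.00891), and these passed without any 1 of the 8 arrays. ATO2 read 420.2 and 465 with carnitine and peroxide, against 178 and 159.8 with peroxide alone, with 40.2 and 42.8 with carnitine alone and 69.8 and 96.2 in the control, so carnitine's difference was 1.39 ± 0.17 (log2 difference ± SE, adjusted p = 0.00289) under peroxide and -0.98 ± 0.17 (SE) without it. PGM2 had an interaction of 1.54 ± 0.15 (adjusted p = 0.00891), which also passed without any 1 array. By list, interactions were positive for 13 of 36 proteasome genes and 11 of 18 hexose transport genes, and negative for 12 of 25 mitosis genes, 12 of 53 amino acid synthesis genes and 9 of 21 purine genes.

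A smaller set passed both with and without peroxide, though not all of it moved alike. Of the 1892 genes changed under peroxide, 42 also passed for carnitine alone: 14 rose in both, 20 fell in both and 8 had opposite signs. Some genes of equal sign differed in size, since their interactions passed: PDH1 (-0.83), TIR2 (-0.99), YNL092W (1.09), GAP1 (0.52) and PTR2 (0.74). Without peroxide, carnitine's difference was -1.83 ± 0.17 for PHO84, -2.46 ± 0.23 for SPL2, -1.75 ± 0.31 for BAG7 and 1.44 ± 0.14 for HPF1 (log2 difference ± SE), and their interactions were 0.14, 0.02, -0.12 and -0.16, none of which passed. The urea transporter DUR3, named after its values were seen, read 3434 and 3217 with carnitine and peroxide, against 1818 and 1918 with peroxide alone, with 5287 and 4506 with carnitine alone and 2392 and 2563 in the control. It rose by 0.83 ± 0.096 (log2 difference ± SE, adjusted p = 0.00263) under peroxide and 0.98 ± 0.096 without it. The zinc transporter ZRT1 read 756 and 928 with carnitine and peroxide, against 534 and 513 with peroxide alone, with 4765 and 5178 with carnitine alone and 2262 and 2401 in the control. It rose by 0.68 ± 0.12 (log2 difference ± SE, adjusted p = 0.00571) under peroxide and 1.09 ± 0.12 without it.

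**Figure D5:**
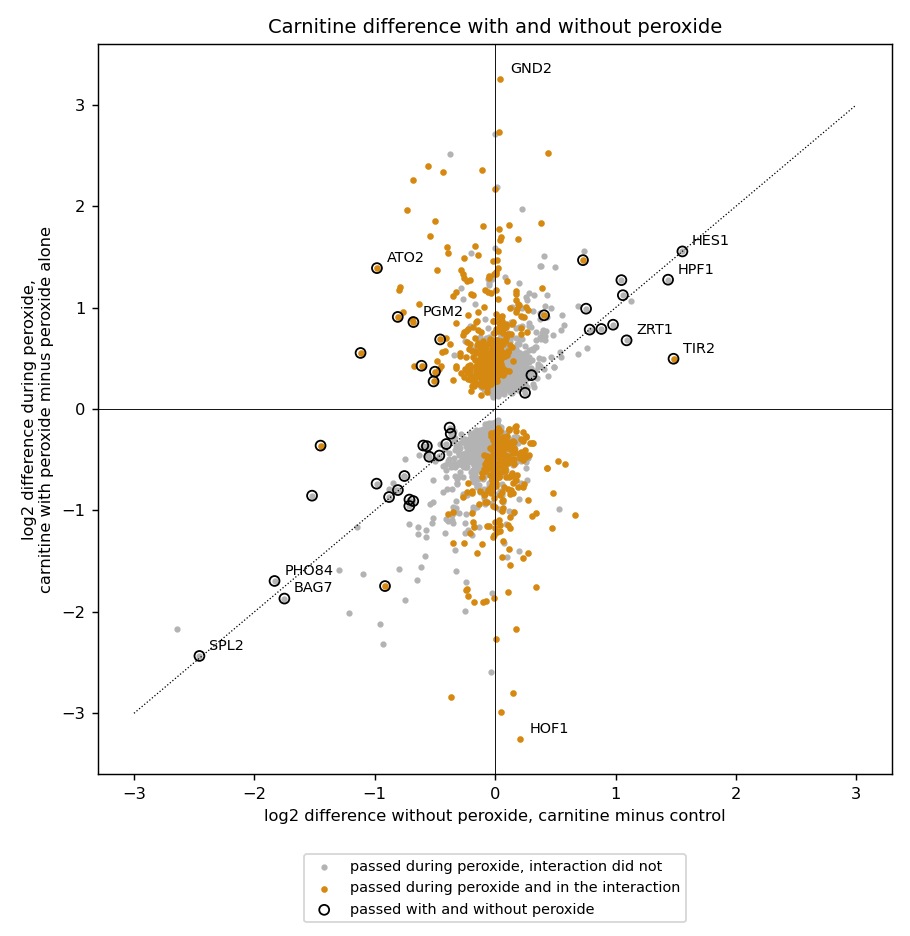
Log2 difference under peroxide (carnitine with peroxide minus peroxide alone, vertical) against log2 difference without peroxide (carnitine minus control, horizontal) for the 1892 genes that passed under peroxide; the axes share no array and the dotted line marks equal differences. Orange genes also passed in the interaction, grey ones did not, and circles mark the 42 genes that passed in both; GND2 and HOF1 lie near 0 on the horizontal axis, and PHO84, SPL2, BAG7 and HPF1 near the dotted line. Labelled genes were picked after their values were seen where the text does not describe them.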

How the data were processed

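RNA of 8 cultures had been hybridised to Affymetrix yeast arrays, 1 array per culture. The authors deposited 1 intensity per probe set and array on a linear scale (3.20 to 79918), and per the submitters' processing notes the software was GCOS. The GCOS version and scaling were not stated in the labels. Of 10928 probe sets, 5498 were assigned to a single Saccharomyces cerevisiae gene by the platform annotation, giving 5449 genes, each read from its probe set with the highest mean. Symbols followed RefSeq (12 updated). Genes whose mean log2 signal was at or below the 95th percentile of 1746 fission yeast probe sets (2.05, or a signal of 4.14) were left out. Deposited signals were log2-transformed without further normalization and fitted in limma 3.58.1 (R 4.3.3) as 4 group means over 8 arrays, with empirical Bayes moderation and a variance trend. Contrasts were carnitine with peroxide minus peroxide and the interaction, adjusted by Benjamini-Hochberg with a threshold of 0.05; 95% intervals are the fit's own. The procedure was tested on simulated data. Figures used matplotlib 3.10.9 with Python 3.11.15.

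The members, the 46 gene lists and the tests were chosen with earlier results of these data known. Genes named in the text were the 15 largest rises and falls that passed, did not overlap between groups and had a mean signal of at least 100 in the higher group, up to 4 members of each list by the size of the moderated statistic, up to 8 genes per direction of interaction, and fixed sets for carnitine use, antioxidants, regulators and mating type. Exceptions are marked. Alternatives covered normalization, spike scaling, low-signal filters, variance trend, offset, arrays in the fit, replicate block, fold minimum, threshold, probe sets per gene and leaving out each array. The array signals give no read depth, and the number of arrays limits the precision.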

Additional observations from a re-analysis of the deposited data

Results flagged for a closer look

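For 683 genes the carnitine difference under peroxide differed from the carnitine difference without peroxide by the interaction test of limma (adjusted p below 0.05), with the dependence on single arrays given above. Among those named by rule, the interaction was positive for GND2 (3.21 ± 0.32), YJR115W (2.96 ± 0.72), YBR284W (2.77 ± 0.64), TKL2 (2.47 ± 0.48), ATO2 (2.37 ± 0.24), MAL31 (2.25 ± 0.34), SPS100 (2.18 ± 0.48) and IRC15 (1.998 ± 0.31), each as log2 value ± SE. It was negative for HOF1 (-3.46 ± 0.35), SFG1 (-2.95 ± 0.50), SWI5 (-2.34 ± 0.42), YGR126W (-2.27 ± 0.50), PCL2 (-2.09 ± 0.31), AIM20 (-1.91 ± 0.46), CHS2 (-1.81 ± 0.38) and TIR1 (-1.81 ± 0.36). On the arrays without peroxide SPS100 read 4.14 to 4.16 and YGR126W 3.94 to 3.997, at or below the fission yeast level of 4.14, so carnitine's difference without peroxide was not measurable there and their interactions restate the difference under peroxide. IRC15 (6.19 to 10.7), YBR284W (7.82 to 15.4) and GND2 (9.82 to 13.8) also read low on those arrays. For them carnitine's difference without peroxide rests on signals close to that level. Of these 16, GND2, ATO2 and HOF1 passed without any 1 of the 8 arrays; the others failed to pass in 2 to 7 of the 8 left-out fits, with adjusted p of at most 0.117. The poly-A spikes, outside the main measurement, averaged -0.70 (log2) in carnitine with peroxide minus peroxide, with 12 probe sets, while the 9 hybridisation spike probe sets differed by -0.05. By the poly-A means given above, the peroxide arrays stood above all other groups, and carnitine with peroxide lay near the carnitine and control arrays.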

How the results depend on the processing

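Against 1892 calls (1002 rises, 890 falls), poly-A spike scaling gave 4714 (4633, 81), the 5 bright poly-A probe sets, a scaling chosen after seeing the data, 4597 (4551, 46), hybridisation spike scaling 1088 (704, 384), and a 2-fold minimum 197 (95, 102). Rises made up 53.0% of calls as deposited, 98.3% under poly-A and 64.7% under hybridisation spike scaling. The median of all tested genes stood at 0.70 and 0.82 under the poly-A scalings and at 0.06 under the hybridisation scaling. Leaving out 1 array gave 786 to 1763 calls (431 to 937 rises, 355 to 827 falls). Against 683 interaction calls (411 positive, 272 negative), poly-A scaling gave 3935 (3895, 40), bright poly-A scaling 2791 (2766, 25), hybridisation scaling 354 (155 positive), no filter 449 (173 negative), a 2-fold minimum 144 (88, 56) and adjusted p below 0.1 1249 (716, 533). Leaving out 1 array gave 17 to 969 interaction calls (10 to 553 positive, 3 to 416 negative). The counts under the other alternatives stayed within 1.5 times. The replicate block gave 1972 calls and 863 interaction calls. The labels give only replicate numbers and do not say whether equal-numbered arrays were paired. Deviations of equal-numbered arrays correlated over genes at 0.12, 0.13, 0.038, 0.074, 0.069 and -0.11 over the 6 pairs of groups, 2 of them above 0.1. Such correlations cannot decide whether the arrays were paired.

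Under poly-A scaling the log2 difference turned to 0.40 for AGP2, 0.41 for CAT2, 0.62 for CCP1, 0.48 for CYC1, 0.45 for CYC7, 0.69 for GPX2, 0.50 for GSH1, 0.35 for HIS3, 0.30 for RPN4, 0.0198 for RPS26B, 0.31 for SRX1, 0.65 for STE2, 0.67 for TKL1 and 0.16 for WRS1, and under bright poly-A scaling to 0.088 for AFT2, 0.52 for AGP2, 0.53 for CAT2, 0.74 for CCP1, 0.60 for CYC1, 0.57 for CYC7, 0.80 for GPX2, 0.62 for GSH1, 0.46 for HIS3, 0.016 for HIS4, 0.062 for KSS1, 0.0596 for MET16, 0.42 for RPN4, 0.14 for RPS26B, 0.43 for SRX1, 0.76 for STE2, 0.79 for TKL1, 0.28 for WRS1 and 0.049 for YAP7. Under other settings signs turned for named genes that did not pass: under quantile normalization GPX2 (0.00326) and TKL1 (0.000182) and under hybridisation spike scaling GPX2 (0.0416), STE2 (0.00161) and TKL1 (0.0283). Over the left-out arrays such values spanned -0.683 to 0.0859 for AGP2, -0.043 to 0.0206 for GPX2, -0.138 to 0.221 for HNM1, -0.0159 to 0.0529 for SOD2, -0.314 to 0.212 for STE2 and -0.0754 to 0.0266 for TKL1. The median of the glycolysis list turned to -0.00164 under quantile normalization, and under hybridisation scaling those of the Start, beta-oxidation and daughter-cell separation lists turned to 0.0356, 0.0407 and 0.0471. The interaction was 0.31 for GSH1 and 0.10 for WRS1 under poly-A scaling and 0.0014 for AFT2, 0.42 for GSH1, 0.0042 for KSS1, 0.065 for RPS26B and 0.20 for WRS1 under bright poly-A scaling. By construction these scalings add 1 constant (0.70 or 0.81 for the difference) to every gene's value. Of 116 named genes that passed, 12 lost their call without peroxide replicate 2, 16 and 11 without carnitine with peroxide replicates 1 and 2, 7 under hybridisation scaling, 13 under poly-A scaling with 5 more reversed, and 10 under bright poly-A scaling with 10 reversed. Signals near the fission yeast level limit what genes such as CRC1 and ALP1 can show.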
